A study of Drosophila melanogaster with 8 samples.

Results

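The transcripts described here encode the retinoblastoma proteins, the E2F factors they hold in check, and the cyclins and kinases that act on both at the entry to S phase. They were followed in Kc cells, an established line of female *Drosophila melanogaster* cells with features of hemocytes. The 10 genes were listed by name as Rbf, Rbf2, E2f1, E2f2, Dp, mip130, CycD, Cdk4, CycE and dap. Of these, 8 had a probe set of their own among the 11982 genes tested, and each of the 8 had a single probe set. The only probe set that names E2f1 also names Torsin, an X-linked gene, and no probe set used here names dap. The list was drawn up with earlier results of these arrays known. The list was chosen by name for the genes' roles, but Rbf was selected on its measured difference between Sxl RNAi and GFP RNAi, a fall in an X-linked gene. All differences of the members between Sxl RNAi and GFP RNAi are therefore given as a description and without a test. Rbf is treated the same way in the double knockdown against GFP RNAi. Tests of the other members there, and of all members between the knockdowns, use some of the same arrays and are not independent of that choice.

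RNA was measured on 8 Affymetrix expression arrays of Kc cells soaked in double-stranded RNA. The control received GFP double-stranded RNA (GFP RNAi, 3 arrays), the knockdown received Sxl double-stranded RNA (Sxl RNAi, 3 arrays), and the double knockdown received both Sxl and msl-2 double-stranded RNA (Sxl and Msl2 RNAi, 2 arrays). Kc cells are a single cultured line, and the labels give no genotype beyond it, no treatment time. They do not say that replicates were separate cultures, and the p-values may thus rest on a technical spread among the arrays alone. SXL, the female switch protein, prevents translation of msl-2. The MSL2 protein limits assembly of the male-specific lethal (MSL) complex, which raises X-linked transcription in males. The question put to these genes was whether regulators of G1 follow the X when SXL is lost, and whether that depends on msl-2.

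In flies, as in mammals, retinoblastoma proteins bind E2F and DP dimers on promoters and hold genes of DNA replication silent until cyclin-dependent kinases phosphorylate them. Rbf binds both E2f1, the activator, and E2f2, the repressor, whereas Rbf2 binds E2f2. Cyclin D with Cdk4 and cyclin E with Cdk2 act on Rbf, and dap encodes the inhibitor of cyclin E and Cdk2. mip130 encodes a subunit of dREAM, a large repressor complex that contains E2f2, Dp, a retinoblastoma protein and Myb.

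Every value is a log2 RMA value, the deposited summary of the probes of a set, so that a step of 1 is a doubling. Array medians lay between 4.40 and 4.46. A gene whose mean passed 5.24 (the all-gene median) is called expressed, and all 8 measured regulators were, although the arrays give no detection call. The labels name the GFP array that serves as background for each knockdown array. Set 1 is made of the first GFP RNAi array, the second Sxl RNAi array and the first array of the double knockdown. Set 2 is the second GFP RNAi array with the first Sxl RNAi array, and set 3 is the remaining arrays. Values are listed below in replicate order within each group. Both arrays of set 2 stood apart from the other 6, with correlations over expressed genes of 0.936 to 0.953 to them, against 0.968 or more among those 6. Of 10 hemocyte markers 8 were expressed, NimC1 and Sr-CI being under the limit, and their summed level was 12.7 to 13.0 in GFP RNAi, 12.3 to 13.0 in Sxl RNAi and 12.5 in Sxl and Msl2 RNAi. Limma called 1 of the 10 higher (Pxn, 1.37) and 1 lower (Ppn, -1.63) in the double knockdown. In either direction it called 3.79% of all genes there and 7.06% of expressed genes. After Sxl RNAi it called 1 higher (Pxn, 1.39) and 2 lower (Ppn, -1.33, and He, -1.02), against 10.3% of all genes and 19.2% of expressed genes. The X-linked neuronal gene elav was higher as well after Sxl RNAi (0.66), as were 41% of expressed X genes. The part of such changes in the results below was not tested. The measured markers of muscle and fat body were under the limit, with values from 3.46 to 4.96 over both lists. The neuronal genes elav and brp were expressed and nSyb was not. The germ line gene bam was at 7.79 and 7.43 in the GFP and Sxl arrays of set 2 and between 4.51 and 4.85 elsewhere, whereas vas and nos were under the limit. In such bulk samples fewer cells with a transcript and less transcript per cell cannot be told apart. The msl-2 transcript was at 4.32 to 4.51 in GFP RNAi, 5.33 to 6.19 in Sxl RNAi and 4.13 to 4.16 in the double knockdown. The Sxl transcript was at 6.99 to 7.20, 6.09 to 6.93, and 6.65 and 7.37 in the same order, so that its own signal on the second of the arrays labelled as double knockdown was above that of its control (6.99).

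Rbf encodes the principal retinoblastoma protein of the fly. Its transcript was at 6.71, 6.36 and 6.56 in GFP RNAi. It was at 5.88, 5.55 and 5.81 in Sxl RNAi, and the double knockdown gave 5.86 and 5.94. All 5 knockdown arrays were lower than all 3 controls, and the knockdowns overlapped each other. Within control pairs the difference of Sxl RNAi from GFP RNAi was -1.16 in set 1, -0.49 in set 2 and -0.75 in set 3. The fitted difference was -0.80 ± 0.11 SE, a level 1.74-fold lower. It ranged from -0.96 to -0.65 when single arrays were left out. In the double knockdown the pairs gave -0.85 in set 1 and -0.62 in set 3, and the fitted difference was -0.65 ± 0.13 SE, or 1.57-fold lower. Without GFP RNAi replicate 1, the highest of the controls, it was -0.47. The Rbf level was low, with a mean of 6.09 at the 54th percentile of all genes, near the expression limit of 5.24. It rests on 1 probe set, and an effect of background signal on the folds was not tested.

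**Figure D1:**
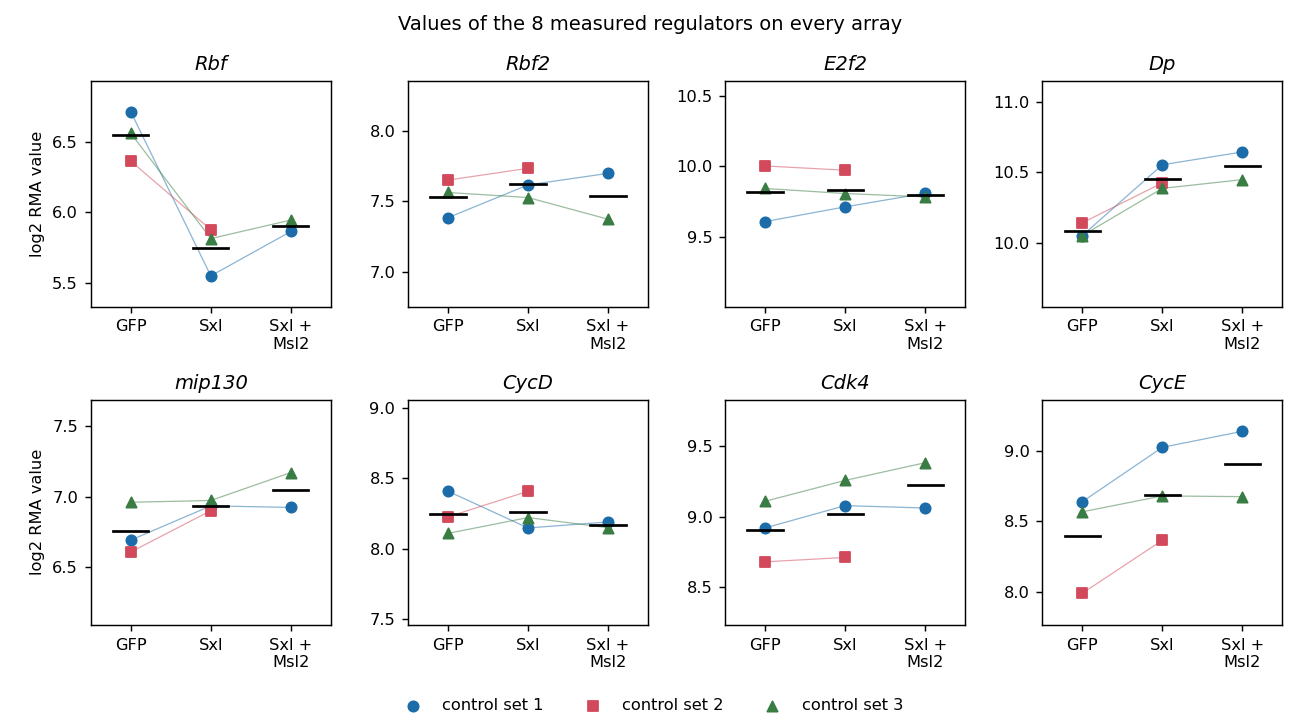
Log2 RMA value (vertical axis, 1.6 units in every panel) of the 8 measured regulators in GFP RNAi, Sxl RNAi and Sxl and Msl2 RNAi (horizontal axis). Points are arrays, coloured by control set and joined within a set, and bars are group means. Rbf is lower on all 5 knockdown arrays than on the 3 controls, Dp is higher on all 5, and CycE, Cdk4 and E2f2 differ most between control sets.

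Rbf stood at the low end of the X chromosome in both comparisons with GFP RNAi. Among 1047 expressed X genes the median difference after Sxl RNAi was 0.23, with 90% of them between -0.15 and 0.78, and only 155 were below 0. Rbf had the 5th lowest value, after ssx, CG4119, tyf and CG1835. CG1835, next below it, and S6KL, next above it, were both at -0.80 as well. Over all 11982 genes limma called 10.3% in this comparison, 521 of them lower (4.35%), and 19.2% of expressed genes. Over the expressed X genes it called 17 lower (1.62%) and 429 higher (41%). Since Rbf was picked for this difference, its place is a description only. In the double knockdown, where the median of the expressed X genes was 0.06, Rbf had the 8th lowest value of the same 1047, of which limma called 1.72% lower and 9.55% higher. The GFP arrays are shared by both comparisons, and so these places are not independent of each other.

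**Figure D2:**
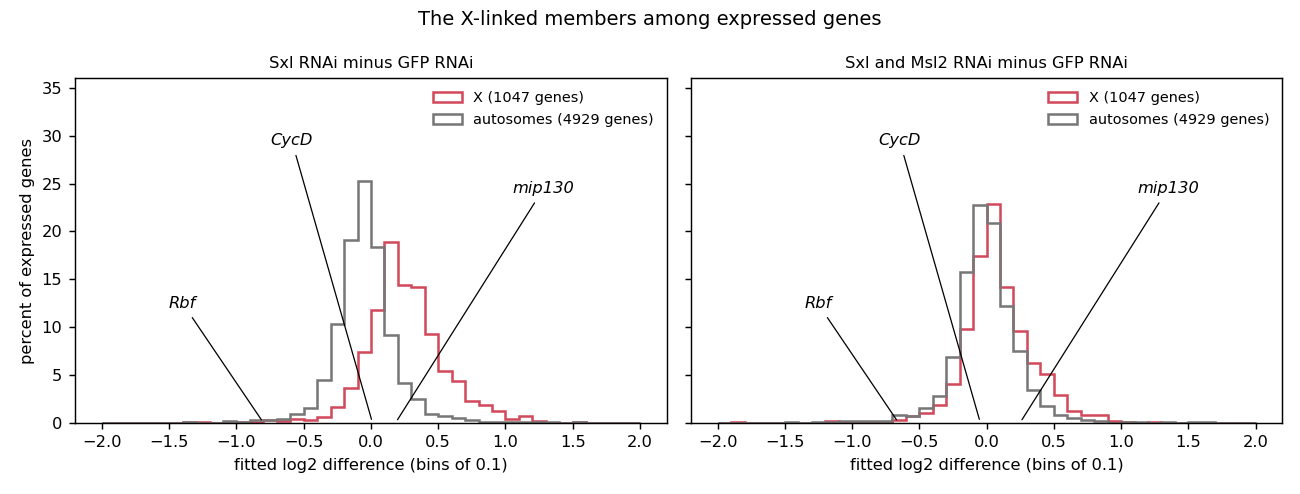
Distribution of fitted log2 differences (horizontal axis, bins of 0.1) over expressed X genes and expressed autosomal genes (vertical axis, percent of genes), for both knockdowns against GFP RNAi. Lines lead from the names to the values of the X-linked members: Rbf at -0.80 and -0.65, CycD at 0.01 and -0.05, and mip130 at 0.18 and 0.25.

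The direct comparison of the knockdowns asked whether msl-2 double-stranded RNA changed the Rbf level. Sxl RNAi minus Sxl and Msl2 RNAi was -0.15 ± 0.13 SE, with a 95% interval from -0.44 to 0.15 (limma adjusted p = 0.762). The pairs gave -0.31 in set 1 and -0.13 in set 3, and without Sxl RNAi replicate 2 the fitted value was 0.03. A difference between the knockdowns was thus not shown, and the interval leaves room for a Rbf level up to 0.44 lower, or 0.15 higher, with msl-2 intact. The median of expressed X genes was 0.14 between the knockdowns, and 41 of the 1047 were lower than Rbf. The test and this rank share the Sxl RNAi arrays with the comparison for which Rbf was picked.

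The genes beside Rbf on the X lay closer to 0. In chromosomal order the 3 measured genes before it were tw, CG13360 and CG16989, and the 3 after it CG13359, CG13358 and Sec22, which encodes a vesicle fusion protein. After Sxl RNAi their differences were -0.02, 0.02, 0.16, -0.03, 0.04 and 0.00, and in the double knockdown they were -0.20, 0.07, -0.02, -0.15, 0.04 and -0.19. None of the 6 passed the threshold in the double knockdown (limma adjusted p from 0.257 to 0.936). Only CG16989 and Sec22 of these were expressed, at means of 8.72 and 10.60. The other 4, of which tw encodes a protein mannosyltransferase, had means from 3.78 to 5.05 and could show little change.

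**Figure D3:**
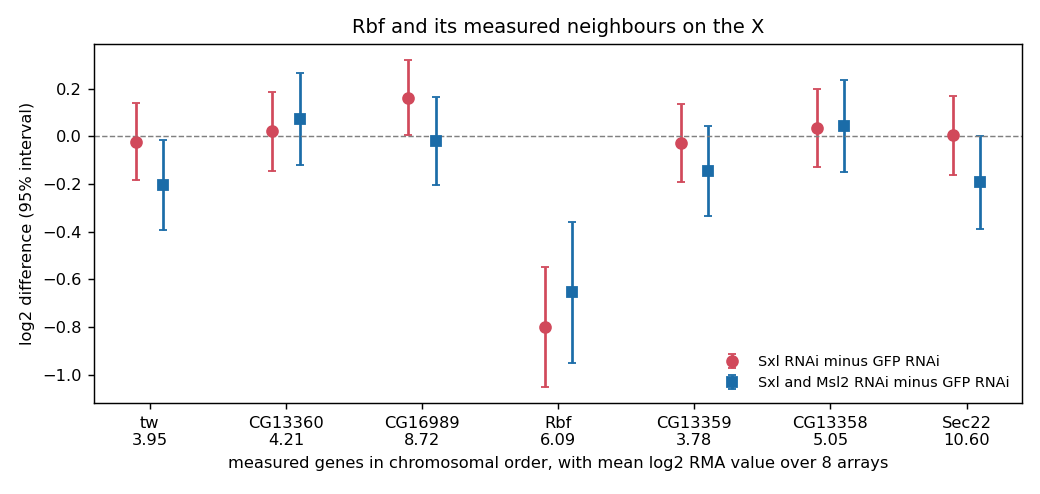
Fitted log2 difference from GFP RNAi with its 95% interval (vertical axis) for Rbf and the 3 measured genes on each side of it on the X (horizontal axis, with the mean log2 RMA value of each gene). Rbf is at -0.80 after Sxl RNAi and -0.65 in the double knockdown, and the neighbours lie between -0.20 and 0.16.

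Over the 8 arrays, the expressed genes whose levels were most like those of Rbf were ssx (Pearson r = 0.974), hrg (0.964), Dip-B (0.962), CG3860 (0.962) and Naam (0.961). ssx, an X-linked paralogue of Sxl, was at 9.17 to 9.59 in GFP RNAi, 7.98 to 8.16 in Sxl RNAi and 8.19 to 8.31 in the double knockdown. hrg encodes a poly(A) polymerase, Dip-B a dipeptidase and Naam a nicotinamidase, and all 4 genes other than ssx are autosomal. These are correlations across only 8 arrays that share a group structure, and 42 of 5990 genes had r above 0.9 with Rbf and 63 had r under -0.9. Without control set 2 the 5 genes gave r from 0.956 to 0.979. Among the other members Dp was the most opposed to Rbf, at r = -0.919 (-0.913 without control set 2), whereas CycD was at 0.252 and the remaining members lay between -0.531 and -0.094.

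Rbf2 and E2f2 form the repressive pair of the family. Rbf2 is the second retinoblastoma gene of the fly, on arm 3R, and it was at 7.38, 7.65 and 7.56 in GFP RNAi, 7.73, 7.62 and 7.53 in Sxl RNAi, and 7.70 and 7.37 in the double knockdown. The groups overlapped, and the fitted differences were 0.09 ± 0.09 SE after Sxl RNAi and 0.06 ± 0.11 SE in the double knockdown (95% interval -0.19 to 0.31, limma adjusted p = 0.858), where the pairs disagreed in sign (0.31 in set 1 and -0.19 in set 3). The interval thus reached no lower than -0.19 for this paralogue of Rbf. E2f2, on arm 2L, was at 9.61, 10.002 and 9.84 in GFP RNAi, 9.97, 9.71 and 9.81 in Sxl RNAi, and 9.81 and 9.78 in the double knockdown. Its differences were 0.01 ± 0.07 SE and 0.06 ± 0.09 SE (95% interval of the latter -0.14 to 0.26, limma adjusted p = 0.809). These values are close to 0, and the sign of the second depended on the model.

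Dp encodes the partner that both E2F proteins need to bind DNA. It was at 10.05, 10.14 and 10.05 in GFP RNAi. It was at 10.42, 10.55 and 10.38 in Sxl RNAi, and at 10.64 and 10.45 in the double knockdown. All 5 knockdown arrays lay above all 3 controls. With both genes knocked down Dp rose 1.39-fold (log2 0.47 ± 0.09 SE, limma adjusted p = 0.0193), by 0.59 in set 1 and 0.40 in set 3. It was the only call among the 7 members tested there, 1 of 7 against 3.79% of all genes and 7.06% of expressed genes. After Sxl RNAi the fitted difference was 0.37 ± 0.07 SE, with pairs of 0.50, 0.28 and 0.34 in sets 1, 2 and 3. The knockdowns themselves differed by -0.10 ± 0.09 SE (95% interval -0.29 to 0.10, limma adjusted p = 0.751).

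The Dp call rested on most of the arrays in the comparison. The adjusted p by limma was 0.135 without GFP RNAi replicate 1, 0.0597 without GFP RNAi replicate 3, 0.224 without the first double knockdown array, 0.120 without the second and 0.306 when control sets were not blocked, and it spanned 0.00110 to 0.318 across the alternatives tried. The fitted value stayed between 0.39 and 0.53 in all of them. For Sxl RNAi the groups did not overlap in 2 of the 8 members, Rbf and Dp, against 12.8% of all genes, a comparison that the choice of Rbf had used. For the double knockdown they did not overlap in Rbf, Dp and CycE, 3 of 8 against 24.3% of all genes. This count includes Rbf, whose choice had used the same GFP arrays. Without it Dp and CycE remain of 7 members, close to that share.

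**Figure D4:**
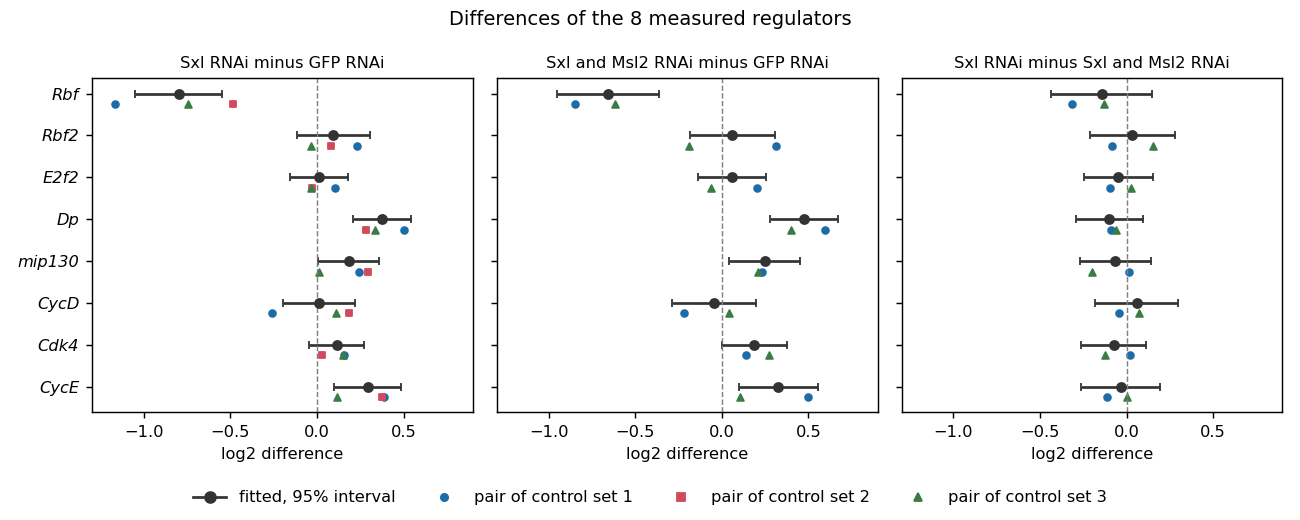
Fitted log2 differences with their 95% intervals (black, horizontal axis) for the 8 measured regulators (vertical axis) in each of the 3 comparisons, with the difference within each control pair as coloured symbols. Rbf and Dp lie on opposite sides of 0 in both comparisons with GFP RNAi, at -0.80 and 0.37 after Sxl RNAi and -0.65 and 0.47 in the double knockdown, and all 8 intervals cross 0 between the knockdowns.

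mip130 encodes a chromatin-binding dREAM subunit and lies on the X. It was at 6.69, 6.61 and 6.96 in GFP RNAi, 6.90, 6.93 and 6.97 in Sxl RNAi, and 6.92 and 7.17 in the double knockdown. GFP RNAi replicate 3 overlapped the knockdowns. The difference after Sxl RNAi was 0.18 ± 0.08 SE, near the median of expressed X genes (0.23), with 440 of the 1047 lower. In the double knockdown it was 0.25 ± 0.09 SE (95% interval 0.04 to 0.45, limma adjusted p = 0.195), 0.23 in set 1 and 0.21 in set 3. There the median of expressed X genes was 0.06, and 816 of the 1047 were lower than mip130. Between the knockdowns it was -0.07 ± 0.09 SE (limma adjusted p = 0.852), beside a median of 0.14 for expressed X genes, with 114 of the 1047 lower.

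CycD and Cdk4 encode the cyclin D kinase, which in flies drives growth as well as division. CycD is the third X-linked member. It was at 8.41, 8.23 and 8.11 in GFP RNAi, 8.41, 8.15 and 8.22 in Sxl RNAi, and 8.19 and 8.15 in the double knockdown. The groups overlapped, and the differences were 0.01 ± 0.09 SE after Sxl RNAi, where 174 of the 1047 expressed X genes were lower, and -0.05 ± 0.11 SE in the double knockdown (95% interval -0.29 to 0.19, limma adjusted p = 0.896). Its Sxl RNAi pairs were mixed, -0.26 in set 1, 0.18 in set 2 and 0.11 in set 3. Cdk4, on arm 2R, was at 8.92, 8.68 and 9.11 in GFP RNAi, 8.71, 9.08 and 9.26 in Sxl RNAi, and 9.06 and 9.38 in the double knockdown. Its differences were 0.11 ± 0.07 SE and 0.19 ± 0.08 SE, the latter by 0.14 in set 1 and 0.27 in set 3 and short of the threshold (limma adjusted p = 0.297).

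CycE encodes cyclin E, the limiting activator of S phase entry in many fly cells and itself an E2F target. It was at 8.64, 7.99 and 8.57 in GFP RNAi, 8.36, 9.02 and 8.68 in Sxl RNAi, and 9.14 and 8.67 in the double knockdown. The pairs gave 0.39, 0.38 and 0.11 after Sxl RNAi in sets 1, 2 and 3, and 0.50 and 0.11 in the double knockdown in sets 1 and 3, where both knockdowns share a control array. Fitted, these were 0.29 ± 0.09 SE and 0.32 ± 0.10 SE. The double knockdown difference did not pass (95% interval 0.10 to 0.55, limma adjusted p = 0.124), although both of its arrays lay above all controls. The CycE, CycD and Cdk4 probe sets carry the suffix that Affymetrix gives to sets whose probes may match more than 1 transcript family, so a contribution of other transcripts to them is possible and was not tested.

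The probe set that names both E2f1 and Torsin cannot be assigned to either gene. It was at 10.05, 10.08 and 10.03 in GFP RNAi, 10.48, 9.92 and 9.92 in Sxl RNAi, and 10 and 9.66 in the double knockdown. The controls lay close together, and the only array above all of them was Sxl RNAi replicate 1. The differences were 0.05 ± 0.12 SE after Sxl RNAi and -0.12 ± 0.14 SE in the double knockdown (limma adjusted p = 0.766, every probe set being fitted).

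No member was called between Sxl RNAi and Sxl and Msl2 RNAi. Limma called 0 of 8, against 0.776% of all genes, 0.743% of all genes higher, 1.52% of expressed genes and 6.4% of expressed X genes higher, and 0 of 8 had an unadjusted p under 0.05. The adjusted p-values were from 0.751 to 0.941, and the widest 95% interval, that of Rbf, reached -0.44. None of the 8 had groups without overlap, against 18.1% of all genes. The median over the 8 members, most of them autosomal, was -0.06, close to the -0.05 of expressed autosomal genes. It was -0.01 for all genes and 0.14 for expressed X genes. The X-linked members Rbf (-0.15), mip130 (-0.07) and CycD (0.06) were each below that X median. The autosomal members lay between -0.10 and 0.03.

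CycE, Cdk4 and E2f2 differed more between control sets than between treatments. The 2 arrays of set 2 had CycE at 7.99 and 8.36, below the 8.57 to 9.14 of the other 6 arrays. Cdk4 was at 8.68 and 8.71 in set 2, below the 8.92 to 9.38 elsewhere. E2f2 was at 10.002 and 9.97, above the 9.61 to 9.84 elsewhere. With treatment in the model, set 2 was apart from the mean of sets 1 and 3 by -0.55 for CycE, -0.40 for Cdk4 and 0.25 for E2f2. For Rbf2 (0.17) and CycD (0.10) the set difference was also larger than the differences from GFP RNAi, although their arrays overlapped. Rbf (-0.04) and Dp (0.02) differed little between sets, although set 2 had the smallest fall of Rbf. CycE, Cdk4 and E2f2, 3 of 8 members with no overlap, compare with 23.5% of all genes and 35.2% of expressed genes. The share is near that of expressed genes, so it does not mark out these members. The bam values given above moved with the same 2 arrays, and so did 7 of the 10 hemocyte markers, of which 4 were above all other arrays (Hml, NimC1, srp and He, the last at 10.56 and 10.39 against 6.08 to 8.04) and 3 below them (eater, crq and vkg, the last at 5.78 and 7.02 against 9.51 to 10.05). The neuronal markers had 1 of 3 below the other arrays. The part of these marker genes in the differences was not tested. Without set 2 the double knockdown differences kept their direction in all 8 members, whereas CycD after Sxl RNAi went from 0.01 to -0.07.

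Lists of partners and targets of these regulators were examined beside them. They were written with earlier results known, and some of their genes had been seen to rise. The S phase list holds genes of DNA replication known as E2F targets, of which 16 of 20 were measured. In the double knockdown limma called 9 of the 16 higher and 0 lower, against 2.19% of all genes higher, and their median was 0.54 beside 0.00 for all genes. Both linkages took part, as 3 of 3 X-linked genes and 6 of 13 autosomal genes were called, with medians of 0.59 and 0.51. Of expressed genes 7.06% were called there in either direction, and of expressed X genes 9.55% were called higher. After Sxl RNAi 11 of 16 were called higher, against 5.98% of all genes, 3 of 3 on the X and 8 of 13 on autosomes. In that comparison 19.2% of expressed genes were called in either direction, and 41% of expressed X genes were called higher. The counts of 9 and 11 use the same GFP arrays. They are a description, since the list was written with earlier results known. Between the knockdowns 0 of 16 were called by limma, with a median of -0.07, while 3 X-linked genes had a median of 0.15 and 13 autosomal genes one of -0.12.

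Prim1 encodes the catalytic subunit of DNA primase. It was at 7.87, 8.08 and 8.48 in GFP RNAi, 8.42, 8.81 and 9.08 in Sxl RNAi, and 8.92 and 9.14 in the double knockdown, where both arrays were above all controls (difference 0.79 ± 0.13 SE, with limma adjusted p = 0.0128). Mcm6, an X-linked subunit of the replicative helicase, was at 10.39, 10.49 and 10.77 in GFP RNAi, 11.08, 11.38 and 11.51 in Sxl RNAi, and 11.18 and 11.32 in the double knockdown, where it rose by 0.62 ± 0.10 SE (limma adjusted p = 0.0128). Orc1, of the origin recognition complex, rose by 0.64 ± 0.14 SE (limma adjusted p = 0.0384) and the X-linked Cdc45, which activates the helicase, by 0.56 ± 0.11 SE (limma adjusted p = 0.0240). Each of these 4 lost its call without GFP RNAi replicate 1, without either array of the double knockdown and with control sets not blocked, and Orc1 and Cdc45 also lost it without GFP RNAi replicate 3, and Orc1 without Sxl RNAi replicate 3 (adjusted p from 0.0502 to 0.537). The count of 9 was 0 without GFP RNAi replicate 1, 2 without GFP RNAi replicate 3, 0 without either array of the double knockdown, 6 without Sxl RNAi replicate 3, 0 with control sets not blocked and 12 without set 2. The count after Sxl RNAi was 6 without GFP RNAi replicate 1, 7 without GFP RNAi replicate 3, 5 without Sxl RNAi replicate 2, 6 without Sxl RNAi replicate 3 and 0 without the block.

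Of 5 measured dREAM partners, 1 was called higher in the double knockdown and 0 lower, against 2.19% of all genes and 9.55% of expressed X genes higher. This was lin-52, an X-linked subunit, at 8.09, 7.94 and 8.24 in GFP RNAi, 8.77, 8.98 and 8.83 in Sxl RNAi, and 8.50 and 8.75 in the double knockdown. Against GFP RNAi the double knockdown was higher by 0.48 ± 0.10 SE (limma adjusted p = 0.0334), and the lin-52 difference after Sxl RNAi was 0.77 ± 0.09 SE. The 4 autosomal partners were not called. They lay between 0.09 and 0.27 in the double knockdown (median 0.18) and between -0.06 and 0.11 after Sxl RNAi. The call in the double knockdown was lost without GFP RNAi replicate 1 or 3, either array of the double knockdown, or the control set as a block (log2 0.35 to 0.60, adjusted p from 0.0823 to 0.375).

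Of 14 measured kinase and ubiquitin ligase partners of G1, Cdk2, the kinase of cyclin E, was the 1 called in the double knockdown, by 0.50 ± 0.09 SE (limma adjusted p = 0.0170), at 8.74 and 8.76 against 8.19 to 8.25 in GFP RNAi. This 1 of 14 is close to the 7.06% of expressed genes called in that comparison. After Sxl RNAi Cdk2 was at 8.33, 8.61 and 8.51 (difference 0.27 ± 0.08 SE). Its call in the double knockdown was also lost without GFP RNAi replicate 1 or 3, either double knockdown array, or the block (adjusted p from 0.0720 to 0.301). Between the knockdowns, the 1 call of the list was Roc1a, an X-linked RING subunit of cullin ligases, at 8.14, 8.001 and 8.18 in Sxl RNAi against 7.34 and 7.56 in the double knockdown, a difference of 0.66 ± 0.09 SE (limma adjusted p = 0.0120). Its level in GFP RNAi was 7.08 to 7.50, and 6.4% of expressed X genes were called higher between the knockdowns. The Roc1a call was lost without either double knockdown array, Sxl RNAi replicate 2 or 3, or the block (log2 0.62 to 0.72, adjusted p from 0.0588 to 0.541). After Sxl RNAi 4 of the 14 were called higher and 1 lower, against 5.98% and 4.35% of all genes, and 3 of the 4 were X-linked, where 41% of expressed X genes were called higher. All 14 were expressed, and 19.2% of expressed genes were called in either direction there. Of the 10 autosomal genes of the list, 1 was called higher and 1 lower. The X-linked fzr, an activator of the anaphase-promoting complex, was at 0.46 ± 0.09 SE, while Cks30A, a small kinase-binding protein, was at -0.32 ± 0.08 SE. Of 16 alternatives, Cdk2 and SkpA, which encodes a ubiquitin ligase subunit, each lost this call in 9, fzr in 6, Cks30A in 10 and Roc1a in 2. Among these, the adjusted p by limma without set 2 was 0.0609 for fzr and 0.0654 for SkpA. Without GFP RNAi replicate 1 it was 0.228 for Cdk2 and 0.146 for Cks30A, and without Sxl RNAi replicate 2 it was 0.250 and 0.143.

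**Figure D5:**
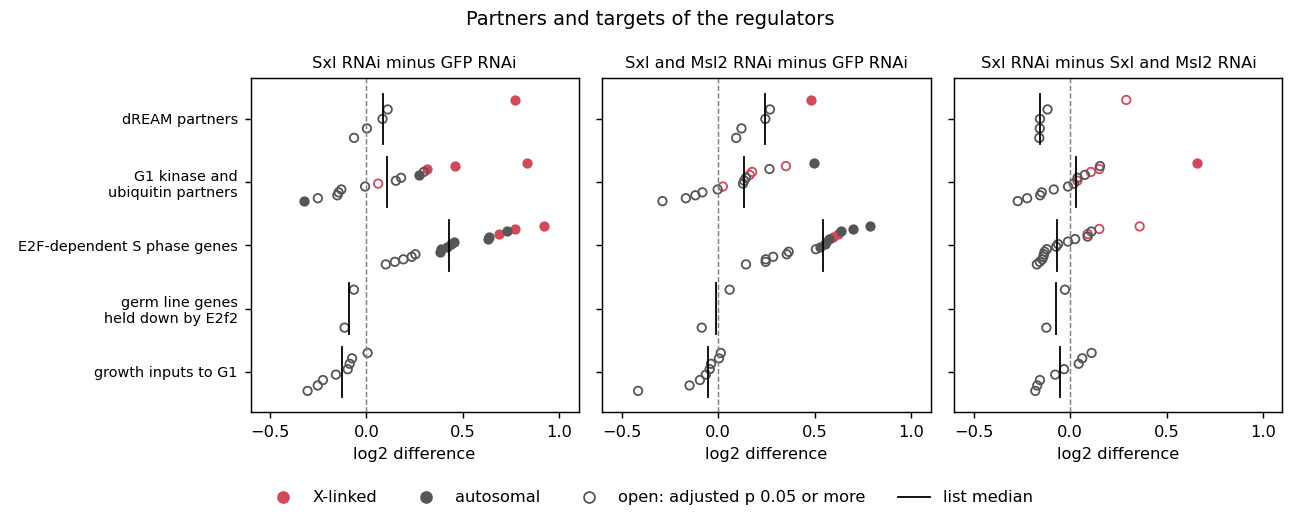
Fitted log2 difference (horizontal axis) of each measured gene of 5 lists of partners and targets (vertical axis) in the 3 comparisons. Red points are X-linked and grey points autosomal, filled points passed adjusted p under 0.05 in limma, and black lines are list medians. The S phase genes lie above 0 against GFP RNAi in both knockdowns, with medians of 0.43 and 0.54.

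The remaining lists gave no calls by limma in any comparison. Both measured genes of the list of germ line genes held down by E2f2 lay near 0 in the double knockdown. The difference was -0.09 for vas, which was under the expression limit. It was 0.06 for spn-E, which was expressed at a mean of 8.53 and thus not silent in these cells. The 8 genes of growth control upstream of G1 had a median of -0.05 in the double knockdown and -0.13 after Sxl RNAi, with S6k, the ribosomal S6 kinase, at -0.42 and -0.30 and Tor, the kinase above it, at -0.10 and -0.25.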

How the data were processed

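The authors deposited log2 probe set values of 8 Affymetrix arrays, made with RMA according to the submitters' processing notes. RMA corrects background, normalizes across arrays and summarises probes, so changes are relative to other genes. Its version was not given in the sources used here. Of 18952 probe sets, 183 array controls were left out, and 13647 had 1 gene symbol, 402 several and 4720 none in the platform annotation. The probe set of the highest mean stood for its gene, giving 11982 genes, of which 11899 matched the RefSeq gene table of Release 6 plus ISO1 MT, used only for names, arms (1873 genes on X) and gene order. No sequences were used here.

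Groups came from the GEO titles and control sets from the descriptions. Limma 3.58.1 in R 4.3.3 took all 8 arrays, with terms for group and for control set (3 residual and 6.53 prior degrees of freedom), and Benjamini-Hochberg adjustment ran across every gene (calls at adjusted p under 0.05). The pairing was checked on deviations from group means in expressed genes, where the Sxl RNAi array and its GFP RNAi control correlated at 0.824 to 0.893, and double knockdown arrays with others of their set at 0.376 to 0.513. With 2 double knockdown arrays, their deviations are mirror images (r = -1), so the latter values are not separate checks of the pairing. The model was tested on simulated data of 11982 genes. Of genes changed by 0.5 on the log2 scale it recovered 50% for the double knockdown against GFP RNAi, and of those changed by 1 it recovered 90%. For Sxl RNAi against the double knockdown the shares were 51% and 94%.

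Members and lists were chosen with earlier results of these data known. All members were named, with 3 measured genes on each side of Rbf, the 5 expressed genes of highest correlation with it, and, of each list, up to 4 genes that passed, by size, or the 2 of highest mean where none did. S6KL, SkpA, the X genes ranked below Rbf, and the marker genes named individually were added after their values were seen. Alternatives were no block, the title number as block, leaving out each array or set 2, centring on autosomal genes, the mean of probe sets, expressed genes only, a variance trend, and only the groups compared. Those for the list counts were added after seeing the data. Leaving out set 2, or either of its arrays, gave the same fitted differences, so these are not separate checks.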

Additional observations from a re-analysis of the deposited data

How the results depend on the processing

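Of the 7 members tested in the double knockdown, 1 was called, and the count was 0 with no control set block and 0 with the title number as the block, and 0 to 1 when single arrays were left out. The 9 calls of the S phase list there became 0 without the block, 0 with the title number as the block and 14 with a variance trend, and 0 to 12 without single arrays. The 11 calls after Sxl RNAi became 0 without the block and 0 with the title number block, and 5 to 12 without single arrays. Removing the block put the set differences into the spread, which left 1 gene called in all in the double knockdown. Small differences that had not been called changed sign. In the double knockdown E2f2 (0.06) was -0.0219 without the block and -0.0215 with the title number block, and Rbf2 (0.06) was -0.0138 with the title number block. Between the knockdowns E2f2 (-0.05) was 0.0347 without the block, 0.0344 with the title number block and 0.00527 with arrays centred on autosomal genes, which also put CycE (-0.03) at 0.0190. Without single arrays, Rbf2 ranged from -0.13 to 0.25 in the double knockdown and from -0.15 to 0.22 between the knockdowns, E2f2 from -0.0354 to 0.155 and from -0.142 to 0.0482, and CycD from -0.11 to 0.10 in the double knockdown. Between the knockdowns Rbf ranged from -0.223 to 0.0333, CycE from -0.161 to 0.0944 and mip130 from -0.113 to 0.0351. Rbf against GFP RNAi stayed below 0 under all 16 alternatives, but Rbf was picked for its fall. Every knockdown array lay under every control, so the sign was close to fixed in advance and is no check. The difference ranged from -0.96 to -0.65 after Sxl RNAi and from -0.73 to -0.47 in the double knockdown. For its size, not all 16 were separate checks. After Sxl RNAi the Rbf difference was the same -0.80 under either change of block, the mean of probe sets, expressed genes only and a variance trend. Comparing only the 2 groups gave that -0.80 too. In the double knockdown the mean of probe sets, expressed genes only and the trend likewise left -0.65 unchanged. Leaving out either array of the control set that lacks a double knockdown array repeated the fit without that set. For the double knockdown, comparing only the 2 groups gave the same fitted difference as that fit (-0.73). The agreement of these alternatives in size was thus partly fixed in advance as well. The number of arrays limits the precision, and leaving out a double knockdown array assumes that the lone one left varies like the other groups.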
